A study of Mus musculus with 2 samples.

Results

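The genes by which macrophages and microglia are recognized were followed through every cell type of the fetal mouse eye. They were 10 of the 32285 genes in the deposited count matrices and were found by symbol: the complement genes C1qa, C1qb and C1qc, the growth factor receptor gene Csf1r with its ligand genes Csf1 and Il34, the receptor genes Trem2, Cx3cr1 and P2ry12, and the mannose receptor gene Mrc1. All 10 had UMIs (unique molecular identifiers, each standing for a captured RNA molecule) in both libraries. Single-cell RNA-seq was performed on E17.5 eye cups, 3 of them pooled per library, with 1 library from Myrf humWT/humWT and 1 from Myrf humdG/humdG embryos. Both alleles carry a human last exon of Myrf, the gene of a membrane-bound transcription factor of the retinal pigment epithelium (RPE). In humWT this exon is intact, in humdG it holds a frameshift near the C terminus, and every cell of the embryo carries the allele, so the humWT library is a control for the frameshift and not for the human exon.

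After filtering, 16166 humWT and 18173 humdG cells remained, with a median of 3785 and 2625 UMIs per cell. With 1 library per genotype there is no replicate check. No test was made and no p-value is given, and the 95% intervals below cover counting error only. Myrf itself stood at 285 and 198 CPM (UMIs of a gene scaled to a fixed total of all UMIs of a class) in RPE-like cells of humWT and humdG, a value that checks no label because 3′ reads fall in the exchanged exon. Between the libraries 102 cell barcodes were shared, 86 of them among cells kept.

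Macrophages settle in every fetal tissue. In the developing eye they include microglia of the retina and macrophages of the hyaloid vessels, the choroid and other borders. CSF1R, a receptor tyrosine kinase, keeps these cells alive and dividing and is switched on by CSF1, also called M-CSF, or by IL-34. C1q, built from the A, B and C chains, starts the classical complement pathway and tags material for removal. TREM2 is a lipid receptor that signals through the adaptor TYROBP, CX3CR1 is the receptor of fractalkine, P2RY12 is an ADP receptor known as a mark of microglia, and MRC1, or CD206, is an endocytic receptor known as a mark of border macrophages.

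The C1q genes lie side by side on chromosome 4 (GRCm38, minus strand) within 18.7 kb: C1qb at chr4:136880129-136886187, C1qc at chr4:136889804-136893065 and C1qa at chr4:136895917-136898803. Trem2 lies at chr17:48346401-48354147 (plus strand), Csf1 at chr3:107741048-107760469 (minus strand), Il34 at chr8:110741829-110805924 (minus strand) and Mrc1 at chr2:14229392-14332057 (plus strand). P2ry12 (chr3:59216272-59262871, minus strand) lies whole inside Med12l, a gene of the other strand, over 46600 bases. Cx3cr1 is annotated at chr9:119901616-120069879 (minus strand) and overlaps 9 other genes, 3 of them protein-coding on its own strand. Il34 overlaps the antisense genes Gm15894 and Gm15895. The counts of Cx3cr1, P2ry12 and Il34 are therefore less certain than those of the C1q genes, Csf1, Trem2 and Mrc1.

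RefSeq promoters (GRCm38.p6, 250 bases before to 50 after the start) were found for 7 of the 10 genes. The letters GAGGAA, 1 form of the motif bound by ETS factors such as the myeloid regulator PU.1, were searched on both strands. They stood in 28.3% of 32851 promoters of this length. They stood in the promoters of C1qb, C1qc, Trem2 and Mrc1 and not in those of Csf1, Cx3cr1 and P2ry12. The MYRF motif CTGGCAC, searched in the same way and present in 5.01% of all promoters, was in none of the 7. These sequences are shown because C1qb, C1qc and Mrc1 followed the same cells closely, whereas P2ry12 did not. C1qb is chr4:136886151-136886450 (minus strand), C1qc chr4:136892865-136893164 (minus strand), P2ry12 chr3:59262936-59263235 (minus strand) and Mrc1 chr2:14229164-14229463 (plus strand). Capitals mark GAGGAA on either strand, and a match is only a run of letters, not a bound site. Shorter GGAA runs, which ETS factors can also bind, were not searched and are left in small letters, also in P2ry12.
C1qb: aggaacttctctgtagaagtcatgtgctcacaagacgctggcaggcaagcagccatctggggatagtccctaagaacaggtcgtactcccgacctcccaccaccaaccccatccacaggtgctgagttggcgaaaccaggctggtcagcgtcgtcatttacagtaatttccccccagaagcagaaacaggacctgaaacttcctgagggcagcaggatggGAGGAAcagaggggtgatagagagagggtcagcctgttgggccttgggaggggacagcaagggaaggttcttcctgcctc
C1qc: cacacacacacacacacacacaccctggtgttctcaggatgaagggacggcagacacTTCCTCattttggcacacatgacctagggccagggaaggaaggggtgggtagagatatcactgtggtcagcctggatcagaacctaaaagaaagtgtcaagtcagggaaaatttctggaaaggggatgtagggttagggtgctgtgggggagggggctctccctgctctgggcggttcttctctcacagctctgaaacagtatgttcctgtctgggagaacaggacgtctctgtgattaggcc
Mrc1: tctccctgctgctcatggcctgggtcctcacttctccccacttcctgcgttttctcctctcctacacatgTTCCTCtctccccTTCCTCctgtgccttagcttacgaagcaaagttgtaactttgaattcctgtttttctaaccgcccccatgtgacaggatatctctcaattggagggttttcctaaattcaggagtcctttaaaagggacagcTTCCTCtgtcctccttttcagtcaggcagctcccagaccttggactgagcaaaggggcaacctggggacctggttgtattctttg
P2ry12: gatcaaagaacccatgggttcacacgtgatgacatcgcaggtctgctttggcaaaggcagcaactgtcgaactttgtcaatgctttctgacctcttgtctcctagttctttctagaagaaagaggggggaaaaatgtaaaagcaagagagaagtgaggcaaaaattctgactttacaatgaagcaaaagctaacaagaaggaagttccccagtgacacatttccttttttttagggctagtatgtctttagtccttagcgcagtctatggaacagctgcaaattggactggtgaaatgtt
Mrc1 held 3 matches, at 180, 167 and 35 bases before the start, C1qb held 1 at 30 bases before it and C1qc 1 at 193 bases before it.

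To see where the genes were expressed, the cells were clustered with all 10 left out of the genes that form the clusters, so that none of them placed a cell by its own level. A cluster was called macrophage-like from 10 other markers, among them Ptprc, Aif1, Spi1 and Lyz2. All 10 were higher in this class than outside it in both libraries, summing to 9210 CPM in humWT and 10098 CPM in humdG against 21.6 and 11.5 CPM outside. The class held 241 of 16166 humWT cells (1.49%, 95% interval 1.31 to 1.69) and 159 of 18173 humdG cells (0.875%, 0.745 to 1.02). Of the cells in named classes it made up 2.19% (1.92 to 2.48) and 1.72% (1.46 to 2.00), since an unnamed cluster of shallow cells led by Sncg and Gphn took 4010 humWT and 7851 humdG cells. Such shares also depend on dissociation and on how the eye cups were trimmed, which cannot be told apart from genotype here.

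The class also held other white blood cells. Cells with UMIs of at least 3 neutrophil markers (S100a8, S100a9 and others) numbered 8 in humWT and 20 in humdG, those with mast cell markers 11 and 2, and those with lymphoid markers 2 and 5, leaving 220 and 132 cells. Neutrophil markers, 7 of 7 higher in the class than outside it, summed to 4468 CPM in humWT and 13028 CPM in humdG, ranging from 20.1 to 2077 CPM and from 112.8 to 5821 CPM. None of the cells marked in this way held a C1q UMI. The ratios of the identity genes and the medians of the gene lists are therefore given for the whole class and without these cells. This step was chosen after seeing the data. Single genes of the lists are mostly given for the whole class only.

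**Figure D1:**
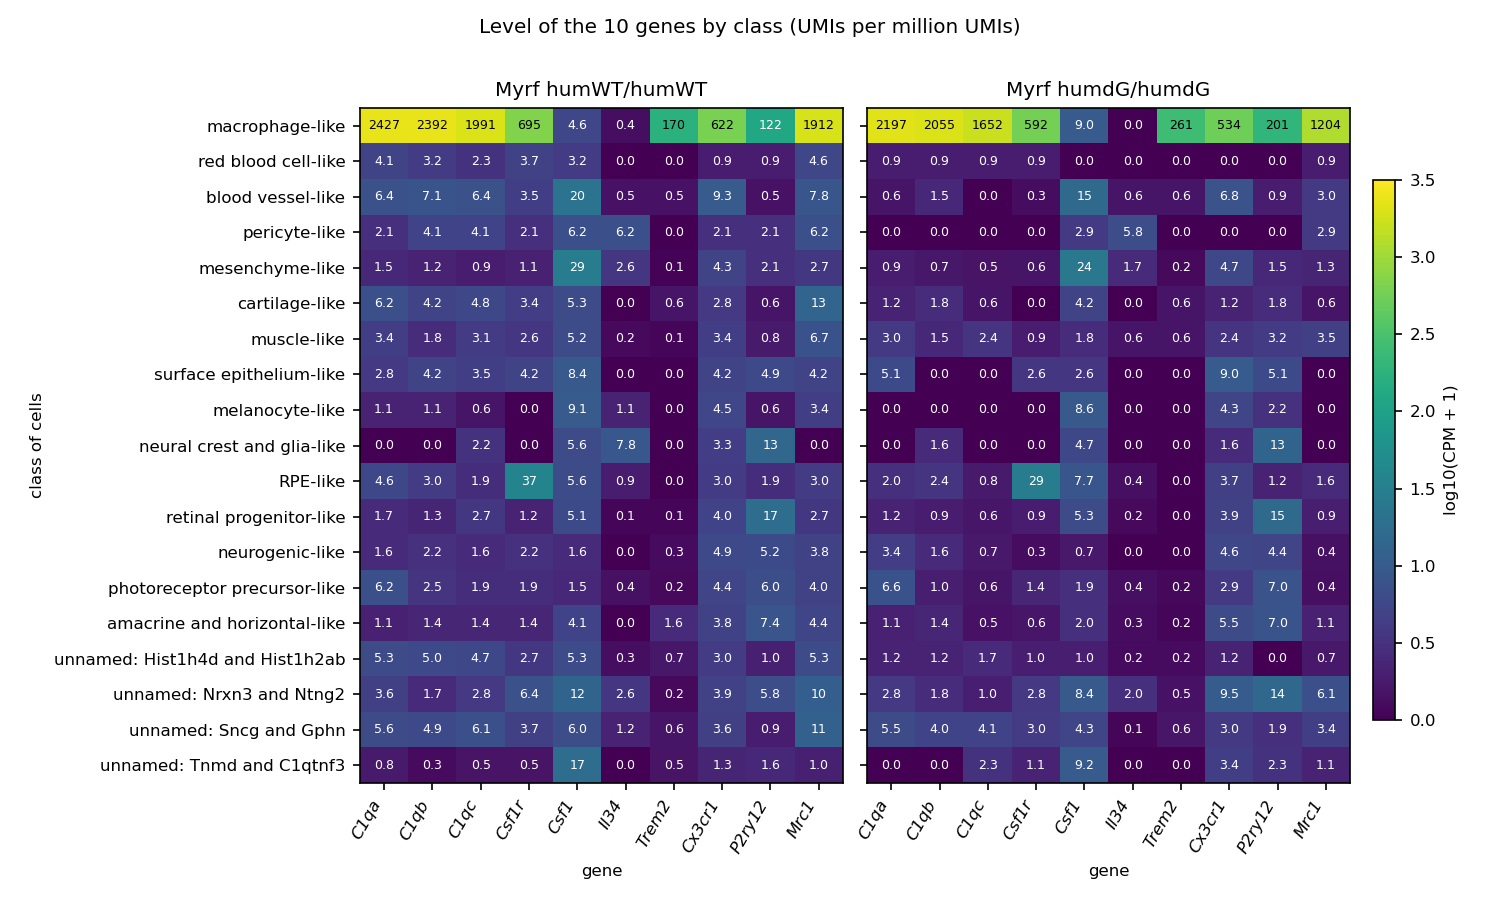
Summed level of the 10 genes (columns, CPM printed in each box, color on a log10(CPM + 1) scale) in the 19 classes and unnamed clusters (rows), for humWT and humdG. The macrophage-like row is the brightest for every gene except Csf1 and Il34. Csf1r in RPE-like cells (37.2 and 28.5 CPM) stands out beside it. P2ry12 was next highest in retinal progenitor-like cells (16.8 and 15.2 CPM), with intervals not apart from the row next in order.

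Of the 10 genes, 7 were at least 10-fold higher in macrophage-like cells than in all other cells of both libraries, with 10 CPM added to each level. This held for 0.841% of the 17354 genes measured. The 7 were C1qa, C1qb, C1qc, Csf1r, Trem2, Cx3cr1 and Mrc1. P2ry12 was just short of this, at 9.23-fold in humWT and 12.7-fold in humdG. The ligands showed no such excess, with Csf1 at 0.606-fold and 1.03-fold and Il34 at 0.921-fold and 0.941-fold. Cells were clustered on genes that move with these, so the excess is a description of the class and not a test of it.

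Of the ligand genes, Csf1 was spread over the connective tissue and the vessels. In the mesenchyme-like cluster led by Pi16 and Tnxb it had 640 UMIs and 35.1 CPM (32.5 to 38.0) in humWT and 267 UMIs and 30.5 CPM (27.0 to 34.4) in humdG. The mesenchyme-like cluster led by Spp1 and Mgp followed with 22.7 CPM (20.4 to 25.2) and 20.5 CPM (17.9 to 23.4). In the shallow mesenchyme-like cluster led by Col12a1 and Postn the levels were 20.6 CPM (15.3 to 27.1) and 14.1 CPM (8.63 to 21.8).

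Mesenchyme-like cells as a whole were above every other class in both libraries, with intervals apart from the next in order. That next class was blood vessel-like cells, at 163 UMIs and 20.4 CPM (17.4 to 23.8) in humWT and 52 UMIs and 15.4 CPM (11.5 to 20.2) in humdG. The unnamed cluster led by Tnmd and C1qtnf3 had 16.9 CPM (13.1 to 21.6) and 9.17 CPM (3.96 to 18.1), which overlapped the vessel interval. RPE-like cells had 5.58 CPM (3.57 to 8.30) and 7.74 CPM (4.66 to 12.1), and retinal progenitor-like cells 5.06 CPM (4.00 to 6.30) and 5.30 CPM (4.46 to 6.25). The red blood cell-like class is not known to express these genes and so shows the free RNA in the droplets. It had 7 Csf1 UMIs (3.22 CPM, 1.30 to 6.64) in humWT and 0 in humdG, where a count of 0 allows up to 2.74 CPM. RPE-like and progenitor-like levels were within the interval of that background in humWT and above its limit in humdG.

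By cells, 415 of 1174 humWT cells (35.3%, 32.6 to 38.2) and 169 of 508 humdG cells (33.3%, 29.2 to 37.6) of the Pi16 and Tnxb cluster held a Csf1 UMI, at a median of 15268 and 16461 UMIs per cell. The share in red blood cell-like cells was 1.48% (0.596 to 3.02) in humWT, at a median of 4164 UMIs. When every cell was thinned to 1000 UMIs, 2.68% of humWT and 2.08% of humdG mesenchyme-like cells were expected to hold a Csf1 UMI, with 0.337% and 0% for the red blood cell-like class. The thinning left out 1 humWT and 4 humdG mesenchyme-like cells and 5 and 6 red blood cell-like cells. The raw share thus depended on depth, and the excess over the red blood cell-like class remained.

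Il34 was sparse. In all cells it had 146 UMIs in humWT and 67 in humdG, of which 94 and 35 lay in mesenchyme-like cells (2.58 CPM, 2.09 to 3.16, and 1.68 CPM, 1.17 to 2.33). The cluster led by Spp1 and Mgp held 69 and 27 of them, at 4.37 CPM (3.40 to 5.53) and 2.52 CPM (1.66 to 3.67). Its leading genes included the pericyte markers Rgs5, Kcnj8 and Pdgfrb, so mesenchyme-like and pericyte-like cells were not cleanly apart for Il34. Pericyte-like cells had the highest or next to highest level, 6.21 CPM and 5.82 CPM, but from 3 and 2 UMIs (1.28 to 18.1 and 0.705 to 21.0). No class could be ranked first for Il34 at this depth. In retinal progenitor-like cells it had 2 UMIs in 1800 humWT cells and 6 UMIs in 3019 humdG cells, and red blood cell-like cells had 0 in both libraries.

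Macrophage-like cells, a small class, held 13 of 1662 Csf1 UMIs in humWT (0.782%) and 16 of 915 in humdG (1.75%), and 1 and 0 Il34 UMIs. By level, Csf1 was at 4.58 CPM (2.44 to 7.83) and 8.98 CPM (5.13 to 14.6), the latter next in order to the cluster led by Tnmd and C1qtnf3. In humdG 10 of the 16 Csf1 UMIs lay in 6 of the 20 neutrophil-marked cells. Without the other white blood cells 11 and 5 Csf1 UMIs were left.

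Between the libraries, the log2 ratio of Csf1, humdG over humWT, was -0.20 (-0.41 to 0.01) in the Pi16 and Tnxb cluster, -0.15 (-0.39 to 0.10) in the Spp1 and Mgp cluster and -0.40 (-0.88 to 0.05) in blood vessel-like cells, each interval reaching 0. Summed over the mesenchyme-like clusters, which the libraries hold in different proportions, it was -0.24 (-0.40 to -0.09) from 1049 and 507 UMIs. Il34 had a log2 ratio of -0.79 (-1.49 to -0.13) in the Spp1 and Mgp cluster, from 69 and 27 UMIs. The widest Csf1 ratios came from few UMIs, -1.57 (-3.09 to -0.34) in muscle-like cells from 46 and 6 UMIs and -2.43 (-4.47 to -0.80) in the unnamed cluster led by Hist1h4d and Hist1h2ab from 16 and 4.

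**Figure D2:**
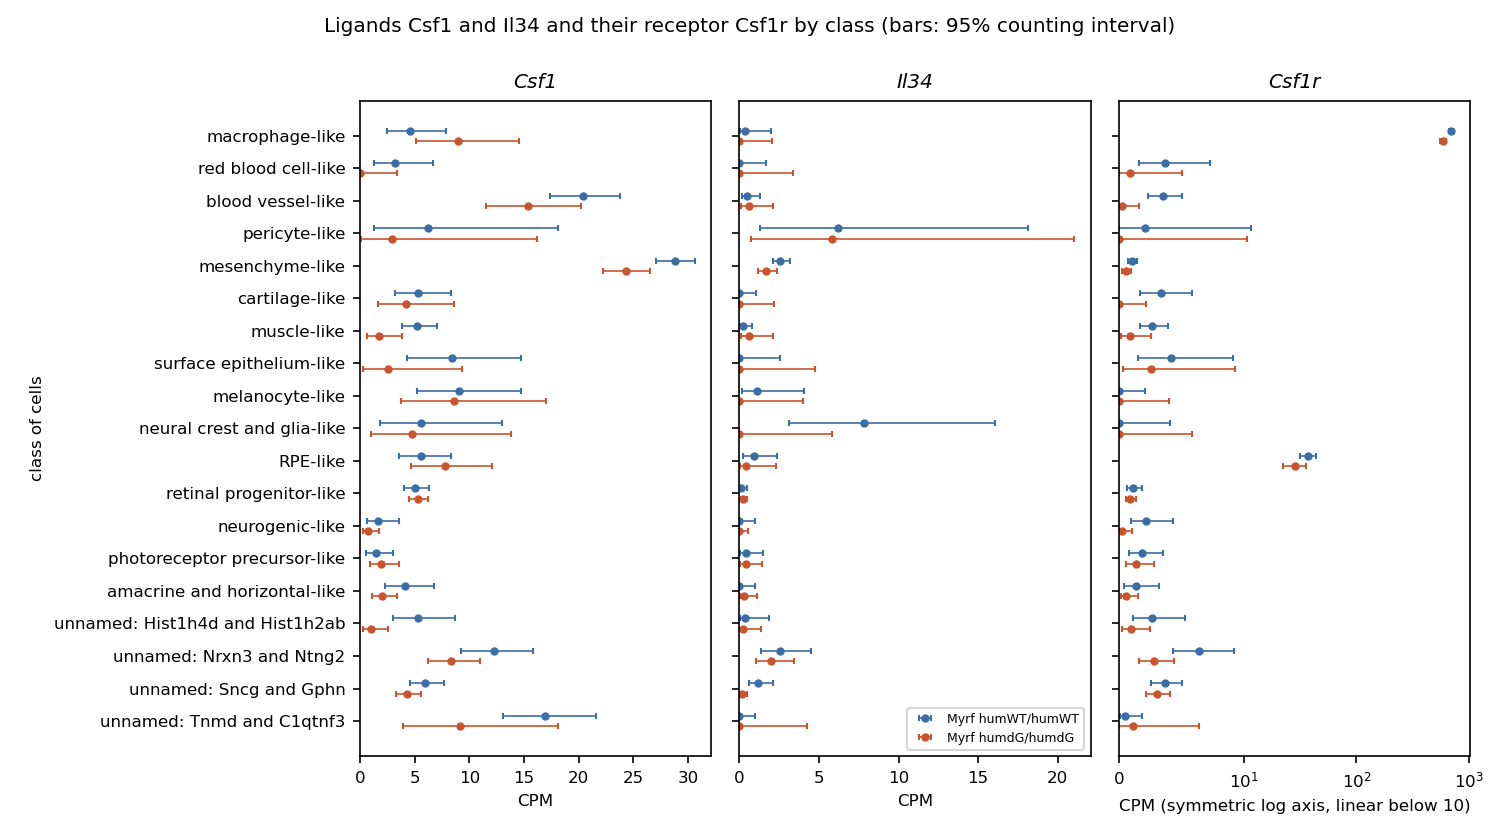
Levels of Csf1, Il34 (linear axes) and their receptor gene Csf1r (symmetric log axis) in CPM by class, humWT beside humdG, with exact Poisson 95% intervals as bars. Csf1 peaks in mesenchyme-like and blood vessel-like cells, whereas Csf1r peaks in macrophage-like cells (695 and 592 CPM) with RPE-like cells next (37.2 and 28.5 CPM).

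The receptor gene Csf1r (chromosome 18, 61100598 to 61132149, plus strand, GRCm38) was at 1971 UMIs and 695 CPM (664 to 726) in macrophage-like cells of humWT and at 1055 UMIs and 592 CPM (557 to 629) in those of humdG. It was found in 151 of 241 (62.7%) and 99 of 159 (62.3%) of these cells. Of all Csf1r UMIs, 83.3% (81.8 to 84.8) in humWT and 84.6% (82.5 to 86.6) in humdG lay in the class. Neutrophil-marked cells of the class had 8 and 10 Csf1r UMIs (88.1 and 46.9 CPM).

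RPE-like cells, the class in which Myrf is known to act, held the next highest Csf1r level. It had 160 UMIs and 37.2 CPM (31.7 to 43.4) in humWT and 70 UMIs and 28.5 CPM (22.2 to 36.0) in humdG. In both libraries this interval lay below that of macrophage-like cells and above that of the class next in order, which had 6.44 CPM (4.34 to 9.19) in humWT and 3.03 CPM (2.2 to 4.06) in humdG. Red blood cell-like cells had 8 and 1 UMIs (3.68 CPM, 1.59 to 7.26, and 0.914 CPM, 0.0231 to 5.09). The log2 ratio of humdG over humWT in RPE-like cells was -0.38 (-0.81 to 0.03), which reached 0.

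Csf1r was found in 84 of 543 humWT (15.5%, 12.5 to 18.8) and 37 of 391 humdG (9.46%, 6.75 to 12.8) RPE-like cells, at a median of 3943 and 2618 UMIs per cell. In red blood cell-like cells the shares were 1.69% (0.731 to 3.30) and 0.405% (0.0102 to 2.23). Thinned to 1000 UMIs, the expected shares were 2.14% and 1.39% in RPE-like cells and 0.315% and 0.110% in the red blood cell-like class. Both RPE-like clusters carried the gene, with 144 and 67 UMIs in the cluster led by Ttr and Ptgds and 16 and 3 UMIs in that led by Ankfn1 and Otx2os1. A single cell gave 13 UMIs in each library, and 147 and 57 UMIs were left without it.

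The Csf1r UMIs in RPE-like cells were set against other macrophage genes. In RPE-like cells there were 390 Csf1r UMIs per 100 C1q UMIs in humWT and 538 in humdG, against 10.2 and 10.0 in macrophage-like cells. RPE-like cells with no C1q UMI, 503 and 379 in number, still had 38.2 and 27.3 CPM of Csf1r. Macrophage markers summed to 17.6 CPM in humWT RPE-like cells with a Csf1r UMI and 19.3 CPM in those without. In humdG the sums were 37.3 and 13.3 CPM, so that cells with the gene, 37 in number, had the higher marker sum in this library. The macrophage-like class itself stood at 9210 and 10098 CPM of these markers.

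RPE-like cells with a Csf1r UMI were also the deep ones, at a median of 18896 UMIs against 3578 in humWT and 19064 against 2458 in humdG. Their 7 RPE markers, among them the pigment genes Tyr and Dct, summed to 27756 against 10960 CPM and 26243 against 13368 CPM. The part of doublets in these values was not tested beyond the marker sums. Melanocyte-like cells, the other pigmented class, had 0 Csf1r UMIs in 102 and 61 cells, which allows up to 1.70 and 3.24 CPM. Csf1r overlaps Hmgxb3 on the other strand by 873 bases, and over 34 points (each class or cluster of at least 50 cells in each library, outside the macrophage-like class) the levels of the pair had a Pearson r of 0.22. Pdgfrb, the gene next to it, had 37.0 and 22.4 CPM in RPE-like cells and 114 and 157 CPM in pericyte-like cells, where Csf1r had 1 and 0 UMIs.

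The C1q genes lay nearly whole in the macrophage-like class. C1qa had 2427 CPM (2370 to 2485) in macrophage-like cells of humWT and 2197 CPM (2129 to 2267) in those of humdG. C1qb had 2392 CPM (2335 to 2449) and 2055 CPM (1989 to 2123), and C1qc 1991 CPM (1939 to 2043) and 1652 CPM (1593 to 1713). Of all C1q UMIs, 95.4% and 95.3% lay in the class, and a C1q UMI was found in 174 of 241 humWT cells (72.2%) and 106 of 159 humdG cells (66.7%).

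Outside the class, 733 of 15925 humWT cells (4.6%) and 470 of 18014 humdG cells (2.61%) held a C1q UMI, 934 and 522 UMIs in all. Both shares lay within the intervals of red blood cell-like cells, 4.22% (2.60 to 6.44) and 1.21% (0.251 to 3.51). The median depths were 3771 and 2601 UMIs outside the class and 4164 and 4160 UMIs in red blood cell-like cells. Only 3 cells outside the class, all humWT, held at least 10 C1q UMIs, and they gave 108 of the 934. By level, some classes were above the red blood cell-like class, which had 9.67 CPM (5.98 to 14.8) and 2.74 CPM (0.565 to 8.01). Blood vessel-like cells of humWT had 159 C1q UMIs and 19.9 CPM (16.9 to 23.2), 55 of the UMIs in 1 cell, against 7 UMIs in humdG. The cluster led by Sncg and Gphn had 16.5 CPM (14.1 to 19.2) in humWT and 13.6 CPM (11.7 to 15.6) in humdG, the latter apart from the red blood cell-like interval.

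The mix of the chains in photoreceptor precursor-like cells leaned to C1qa. In macrophage-like cells C1qa made up 35.6% (35.0 to 36.3) of the C1q UMIs in humWT and 37.2% (36.3 to 38.1) in humdG. In photoreceptor precursor-like cells it made up 30 of 51 (58.8%, 44.2 to 72.4) and 34 of 42 (81.0%, 65.9 to 91.4). The level was low, 6.24 CPM (4.21 to 8.91) in 25 of 592 cells and 6.59 CPM (4.56 to 9.20) in 31 of 783 cells, and overlapped that of red blood cell-like cells (4.14 CPM, 1.89 to 7.87, and 0.914 CPM, 0.0231 to 5.09). In red blood cell-like cells of humWT C1qa was 42.9% of 21 C1q UMIs (21.8 to 66.0). The humdG red blood cell-like cells had 3 C1q UMIs in all. Over all cells outside the macrophage-like class C1qa was 37.6% (34.5 to 40.8) of 934 C1q UMIs in humWT and 46.0% (41.6 to 50.4) of 522 in humdG, both below the photoreceptor precursor-like intervals. Its source was not tested.

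Trem2 had 483 UMIs and 170 CPM (155 to 186) in macrophage-like cells of humWT and 466 UMIs and 261 CPM (238 to 286) in those of humdG. It was found in 109 of 241 (45.2%) and 76 of 159 (47.8%) cells. Outside the class there were 31 and 25 UMIs in all, and red blood cell-like cells had 0. Its adaptor gene Tyrobp was at 1827 and 1830 CPM in the class.

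Cx3cr1 had 1765 UMIs and 622 CPM (593 to 652) in macrophage-like cells of humWT and 952 UMIs and 534 CPM (501 to 569) in those of humdG, with 78.4% and 68.0% of its UMIs in the class. Blood vessel-like cells had 9.25 CPM (7.27 to 11.6) and 6.81 CPM (4.32 to 10.2) where the red blood cell-like class had 0.921 CPM (0.112 to 3.33) and 0. The unnamed cluster led by Nrxn3 and Ntng2 had 3.86 CPM (2.29 to 6.10) in humWT and 9.50 CPM (7.21 to 12.3) in humdG. Its ligand gene Cx3cl1 had its highest level in surface epithelium-like cells (28.7 CPM, 20.6 to 39.0, and 14.1 CPM, 7.06 to 25.3) and 12.5 CPM (10.2 to 15.2) and 11.5 CPM (8.21 to 15.8) in blood vessel-like cells. In macrophage-like cells Cx3cl1 had 1 and 2 UMIs. Blood vessel-like cells thus held both receptor and ligand UMIs, and macrophage-like cells hardly any of the ligand.

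P2ry12 was the least confined of the receptor genes. Macrophage-like cells had 346 UMIs and 122 CPM (109 to 135) in humWT and 358 UMIs and 201 CPM (181 to 223) in humdG, the highest level of any class, yet they held only 40.8% (37.4 to 44.2) and 34.0% (31.1 to 36.9) of its UMIs. Retinal progenitor-like cells, the largest named retinal class, held 263 and 402 UMIs.

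In retinal progenitor-like cells P2ry12 was at 16.8 CPM (14.9 to 19.0) in humWT and 15.2 CPM (13.8 to 16.8) in humdG, in 222 of 1800 (12.3%, 10.8 to 13.9) and 346 of 3019 (11.5%, 10.3 to 12.7) cells. The log2 ratio of the libraries was -0.15 (-0.37 to 0.08). Red blood cell-like cells had 2 and 0 UMIs. Thinned to 1000 UMIs, the expected shares were 1.80% and 1.87% of progenitor-like cells and 0.0890% and 0% in the red blood cell-like class. Neural crest and glia-like cells were alike at 13.4 CPM (6.92 to 23.4) and 12.6 CPM (5.45 to 24.9), from 12 and 8 UMIs. In humdG the unnamed cluster led by Nrxn3 and Ntng2 was also close, at 14.1 CPM (11.3 to 17.4) from 86 UMIs.

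Because P2ry12 lies inside Med12l, a Mediator subunit gene of the other strand, the levels of the 2 genes were set side by side. Retinal progenitor-like cells had 83.0 CPM (78.5 to 87.6) and 85.3 CPM (81.8 to 88.9) of Med12l, and macrophage-like cells 27.5 and 43.2 CPM. Among progenitor-like cells with a P2ry12 UMI, Med12l was at 116 CPM (102 to 131) in humWT and 138 CPM (125 to 151) in humdG, against 77.5 CPM (72.9 to 82.4) and 77.9 CPM (74.4 to 81.6) in those without. Median depths were 9742 against 8110 UMIs and 9211 against 8533 UMIs. The levels of P2ry12 and Med12l had a Pearson r of 0.79 over the same 34 points outside the macrophage-like class, where the other overlapping pairs measured had r between -0.19 and 0.22. In the RPE-like cluster led by Ankfn1 and Otx2os1, Med12l was at 145 and 109 CPM while P2ry12 had 2 and 1 UMIs. C1q UMIs in the progenitor-like cells with P2ry12 numbered 8 and 9, and macrophage markers summed to 11.3 and 8.67 CPM, against 13.2 and 8.02 CPM in those without. Whether reads of Med12l were counted as P2ry12 was not tested.

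Mrc1 had 5426 UMIs and 1912 CPM (1862 to 1964) in macrophage-like cells of humWT and 2145 UMIs and 1204 CPM (1153 to 1256) in those of humdG. It was found in 136 of 241 (56.4%) and 68 of 159 (42.8%) cells, and 90.5% and 92.1% of its UMIs lay in the class. Outside, the level was highest in cartilage-like cells of humWT (12.9 CPM, 9.43 to 17.2) and in the cluster led by Nrxn3 and Ntng2 of humdG (6.06 CPM, 4.27 to 8.35). Red blood cell-like cells had 4.6 CPM (2.21 to 8.47) and 0.914 CPM (0.0231 to 5.09).

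Since P2ry12 and Mrc1 are known marks of different macrophages, the cells of the class were sorted by which of them they held, without the other white blood cells. Both were found in 78 humWT and 39 humdG cells, P2ry12 alone in 20 and 29, Mrc1 alone in 57 and 29, and neither in 65 and 35. The cells with both were far deeper, at a median of 20695 and 19937 UMIs, than those with P2ry12 alone (4709 and 4471), Mrc1 alone (3530 and 3893) or neither (3045 and 2474). The sets of similar depth, P2ry12 alone and Mrc1 alone, give the fairer comparison.

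Cells with P2ry12 alone carried the other genes known from microglia. All 8 microglia genes with at least 20 UMIs in humWT and all 9 in humdG were higher in them than in cells with Mrc1 alone. The share of all genes higher in either set is not given, so this count has no background beside it. Sparc, a matrix protein gene, was at 1136 and 1402 CPM against 277 and 36.9 CPM. Siglech, a sialic acid-binding lectin gene, was at 226 and 235 CPM against 4.91 CPM and 0. Sall1, a transcription factor gene of microglia, was at 61.6 CPM (9 UMIs) and 86.2 CPM (22 UMIs) against 0 in both.

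Cells with Mrc1 alone carried the genes known from border macrophages. All 9 such genes with at least 20 UMIs were higher in them than in cells with P2ry12 alone, in both libraries. Here too no share over all genes stands beside the count. Lyve1, a hyaluronan receptor gene, was at 469 and 411 CPM and had 0 UMIs in cells with P2ry12 alone. Cd163, a hemoglobin scavenger receptor gene, was at 110 and 111 CPM against 0. Pf4, a chemokine gene, was at 7430 and 7033 CPM against 95.8 and 7.83 CPM.

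The other identity genes differed between these sets as well. Trem2 was at 424 CPM (325 to 544) and 674 CPM (577 to 782) in cells with P2ry12 alone and at 155 CPM (119 to 198) and 163 CPM (111 to 232) in cells with Mrc1 alone. Cx3cr1 was at 1232 and 909 CPM against 454 and 274 CPM. Csf1r was close in both, at 739 CPM (606 to 892) and 721 CPM (620 to 833) against 653 CPM (577 to 737) and 633 CPM (524 to 756). C1qa had no common direction, at 1834 against 2389 CPM in humWT and 2847 against 1650 CPM in humdG.

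**Figure D3:**
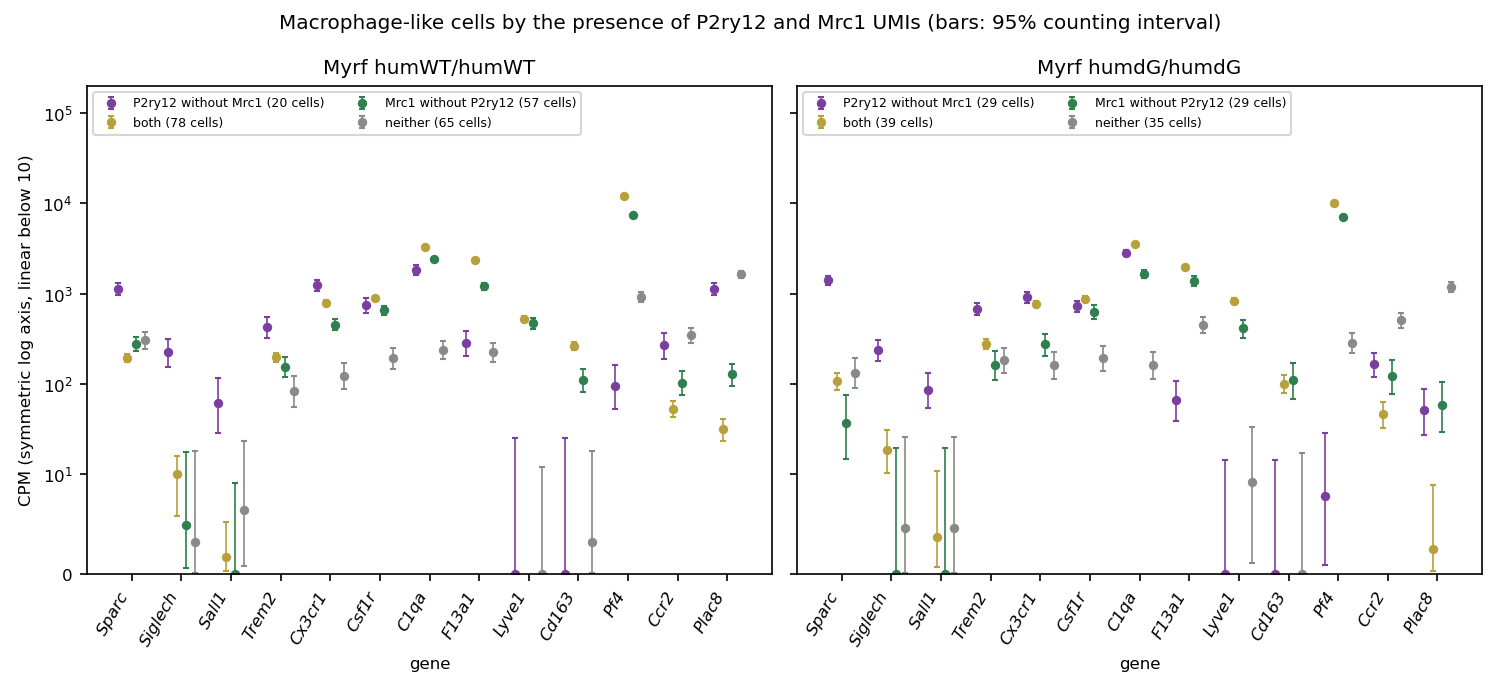
Levels in CPM of 13 genes in 4 sets of macrophage-like cells without other white blood cells, sorted by UMIs of P2ry12 and Mrc1, for humWT and humdG, with exact Poisson 95% intervals. Sparc, Siglech and Trem2 are highest in cells with P2ry12 alone, while Lyve1 and Cd163 are at 0 there, Pf4 is lowest there, and all 3 are higher in cells with Mrc1.

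Cells with both followed the border macrophages in level. Their border macrophage list summed to 18952 CPM in humWT and 16910 CPM in humdG, and their microglia list to 606 and 591 CPM against 3770 and 4543 CPM in cells with P2ry12 alone. Their P2ry12 level was 145 and 212 CPM against 636 and 713 CPM. Both sets were sorted by a P2ry12 UMI and cells with both were far deeper, so sorting and depth partly set this difference. Over the whole class, 76.7% of humWT and 53.4% of humdG cells with P2ry12 also held Mrc1, but with every cell thinned to 1000 UMIs the expected shares were 45.2% and 23.8%. The raw share therefore depended on depth, and the order of the libraries stayed. Mrc1 in all cells of the class had the same order, at 56.4% and 42.8% of cells at full depth. Thinned to 1000 UMIs, 41.5% and 30.2% of all these cells were expected to hold it, so the thinned share was close to this in humWT and below it in humdG.

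Cells with neither gene carried monocyte and antigen presentation genes. The monocyte list summed to 2807 and 2551 CPM in them, against 513 and 243 CPM in cells with Mrc1 alone, and the MHC class II list to 2604 and 3240 CPM against 128 and 84.3 CPM. In humWT the cells with P2ry12 alone also had a monocyte sum of 2470 CPM, with Plac8 at 1129 CPM, against 302 CPM in humdG. The split by C1q also set monocyte genes apart: 46 of 220 and 26 of 132 cells had no C1q UMI, and in them Plac8 was at 2416 and 1140 CPM against 43.9 and 13 CPM in cells with C1q. Ccr2, the monocyte chemokine receptor gene, was at 522 and 578 CPM against 58.4 and 61.5 CPM. The MHC class II list differed in humdG (3024 against 55.9 CPM) far more than in humWT (450 against 356 CPM). In the same cells Mrc1 was at 67.9 and 34.0 CPM against 2372 and 1730 CPM. Cells without C1q had a median of 3183 and 4595 UMIs, against 9968 and 7226 UMIs in those with it.

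The identity genes were then compared between the libraries within the macrophage-like class. P2ry12 and Trem2 were higher in humdG and Mrc1 was lower, with the C1q genes, Csf1r and Cx3cr1 nearly level. Of the 9 genes with at least 20 UMIs in the whole class (Il34 had 1), none passed 2-fold in either direction. Of the 11530 genes with at least 20 UMIs there, 4.25% were at least 2-fold higher and 4.97% at least 2-fold lower in humdG. Without the other white blood cells the shares were 3.02% and 5.83% of 10960 genes, and again none passed of the 8 genes with enough UMIs (Csf1 had 11 and 5).

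The log2 ratio of humdG over humWT for P2ry12 was 0.72 (0.50 to 0.94) in the class and 0.86 (0.64 to 1.08) without the other white blood cells (132 and 240 CPM). For Trem2 it was 0.62 (0.43 to 0.81) and 0.75 (0.56 to 0.93). For Mrc1 it was -0.67 (-0.74 to -0.59) and -0.54 (-0.61 to -0.47), from 2120 and 1459 CPM. The median gene stood at -0.02 in the class and -0.04 without the other white blood cells.

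For the summed C1q genes the log2 ratio was -0.21 (-0.24 to -0.17) in the class, from 6809 and 5904 CPM, and -0.08 (-0.11 to -0.04) without the other white blood cells. Csf1r went from -0.23 (-0.34 to -0.12) to -0.11 (-0.22 to -0.0012), and Cx3cr1 from -0.22 (-0.34 to -0.10) to -0.09 (-0.21 to 0.02). These ratios rose without the other white blood cells, which held no C1q, and so did those of P2ry12, Trem2 and Mrc1. The shift was thus not particular to the C1q genes, Csf1r and Cx3cr1. C1q had 19323 and 10522 UMIs and Trem2 483 and 466 UMIs in both settings. For these genes only the total of UMIs to which they were scaled had changed. Mrc1 went from 5426 to 5425 UMIs in humWT and stayed at 2145 in humdG. Csf1r went from 1971 and 1055 to 1963 and 1045 UMIs, Cx3cr1 from 1765 and 952 to 1751 and 944, and P2ry12 from 346 and 358 to 338 and 353. For these genes the same total changed as well, and the parts of UMIs and total in the shift were not separated. Csf1 alone turned, from 0.97 (-0.18 to 2.15) to -0.34 (-2.21 to 1.30), and had under 20 UMIs in each library. P2ry12-alone cells were 20 of 220 in humWT and 29 of 132 in humdG. Within them the levels of P2ry12 were 636 CPM (514 to 780) and 713 CPM (613 to 824). The sets were sorted by the same P2ry12 and Mrc1 UMIs that enter the ratios. Their sizes and these levels are therefore no separate support for the ratios. A change in the number of cells of a set and a change in level per cell were not separated by a test.

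**Figure D4:**
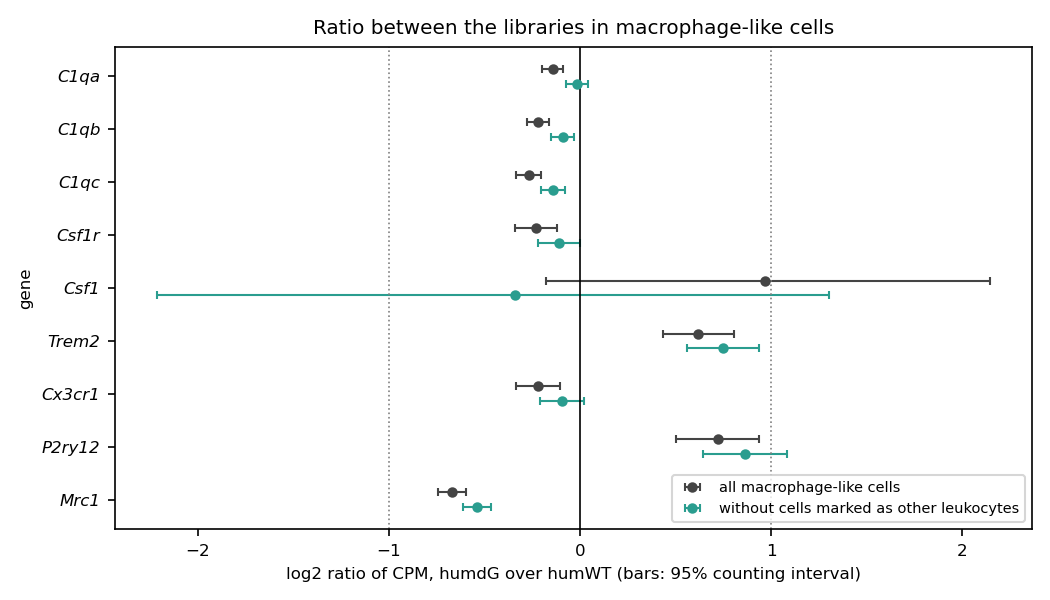
Log2 ratio of humdG over humWT in macrophage-like cells for 9 of the genes (Il34 had 1 UMI and is not shown), with 95% counting intervals, for the whole class and without other white blood cells. P2ry12 (0.72 and 0.86) and Trem2 (0.62 and 0.75) lie to the right of 0 and Mrc1 (-0.67 and -0.54) to the left, while the C1q genes, Csf1r and Cx3cr1 lie close to 0.

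Other genes of the same cells were counted as lists. Of the microglia list, 9 of 9 genes with at least 20 UMIs were higher in humdG, with a median log2 ratio of 0.66 (0.57 without the other white blood cells), where the median of all genes was -0.02. Sparc was at 269 and 295 CPM, a log2 ratio of 0.13 (-0.03 to 0.30). Of the border macrophage list, 7 of 9 were lower, with a median of -0.43 (-0.30 without). Pf4 was at 8412 and 5416 CPM and F13a1, a coagulation factor gene, at 1611 and 1131 CPM. Cd163 was the single listed gene outside the neutrophil and mast cell markers, with UMIs in both libraries, whose whole interval lay past 2-fold, at 173 and 57.2 CPM and a log2 ratio of -1.60 (-1.92 to -1.29). Lyve1 and Folr2 went the other way, at 0.15 (0.01 to 0.29) and 0.52 (0.21 to 0.83).

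Genes of CSF1R signalling and myeloid transcription were level, 8 of 14 higher and a median of 0.01, with Cebpb at 338 and 350 CPM. Without the other white blood cells 6 of 14 were higher, with a median of -0.003. The partners of TREM2 went both ways, 4 of 7 higher with a median of 0.00. The 4 are also on the CSF1R list and include Tyrobp, while the others were lower: Apoe, the gene of a lipid carrier that TREM2 binds, at 12900 and 11892 CPM (-0.12, -0.14 to -0.09), Ms4a6d (-0.33, -0.49 to -0.16) and Ms4a4a (-0.53, -0.81 to -0.25). Without the other white blood cells Apoe was at 0.01 (-0.02 to 0.03), and 3 of 7 partners were higher, with a median of -0.005. Of the other complement genes and receptors 3 of 8 were higher, with a median of -0.12 (3 of 8 and -0.06 without the other white blood cells). C3ar1, the receptor gene of C3a, was at 173 and 131 CPM. Of the phagocytosis and lysosome list 2 of 12 were higher, with a median of -0.14 (5 of 12 and -0.04 without the other white blood cells). Its leading genes, the protease genes Ctsb and Lgmn, were at 1122 and 898 CPM and 1071 and 985 CPM.

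The monocyte list depended on the other white blood cells, with 5 of 7 genes higher in humdG (median 0.29) in the class and 2 of 6 without them (median -0.48). Chil3 had 0 UMIs in humWT and 37 in humdG, none of which remained without the other white blood cells. Plac8, at 284 and 181 CPM, had a log2 ratio of -0.65 (-0.84 to -0.46), and Ccr2, at 100 and 122 CPM, 0.29 (0.03 to 0.55). The MHC class II genes were higher in humdG in 4 of 4 (median 0.46), led by Cd74 at 186 and 218 CPM and H2-Ab1 at 50.4 and 79.1 CPM. Without the other white blood cells 4 of 4 were again higher (median 0.61). Of the cell cycle genes 7 of 8 were higher (median 0.58), led by Top2a at 159 and 236 CPM and Birc5 at 118 and 177 CPM. With the other white blood cells left out it was 8 of 8 (median 0.54). None of these counts was tested. Red blood cell markers in the class summed to 3026 CPM in humWT and 7170 CPM in humdG. Other markers foreign to the class went both ways. Mesenchyme markers summed to 1882 and 595 CPM, RPE markers to 171 and 75.2 CPM and retinal progenitor markers to 409 and 730 CPM. They give no single measure of free RNA.

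Last, each gene was set against 17354 genes by Pearson correlation of log2(CPM + 10) over 36 points, each a class in a library with at least 50 cells. The points share libraries, and the macrophage-like class dominates them for most of the 10. Closest to C1qa were Aif1 (r = 0.996), C1qb (0.995) and Cybb (0.995), and to Mrc1 they were F13a1 (0.994), C1qc (0.992) and Aoah (0.990). Csf1r was closest to Plbd1 (0.985), Slc11a1 (0.981) and Gm26740 (0.98), and P2ry12 to Abhd15 (0.960), Arhgap4 (0.956) and AB124611 (0.943). The ligand genes had other company. Csf1 was closest to Tgfbr2 (0.856), Fbln2 (0.856) and Fam102b (0.839), and Il34 to Mrvi1 (0.9), Rgs5 (0.896), a pericyte gene, and Foxs1 (0.893). The highest Il34 points, those of pericyte-like cells, rested on 3 UMIs in humWT and 2 in humdG. Neural crest and glia-like cells (49 and 39 in number) had no point, though Il34 had 7.81 CPM there in humWT from 7 UMIs. The values for Il34 are therefore weak.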

How the data were processed

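Single-cell RNA-seq (10x 3′ chemistry) was deposited as gene by cell matrices of raw UMI counts, which the authors made with Cell Ranger 7.1.0 on build mm10; the submitters' processing notes also name Seurat 4.1.1. Columns of the matrices are cells of 1 library per genotype, so samples were grouped by the genotype label alone and nothing was tested. The protocol text in the labels names floxed Myrf and Rx>cre pools instead of these alleles, and the study's methods differ from the labels on how many eyes were pooled and on whether the cornea was removed. The genotypes and pools given here follow the labels. Barcodes needed over 500 detected genes and a mitochondrial share below 15% (136 and 178 humWT and humdG cells lost by genes, 268 and 258 by mitochondrial share). Scrublet (scanpy 1.11.5) called 1 and 0 doublets and so did not work, and the 5% of cells with the highest score were removed instead (851 and 956). Totals were 129135207 and 114319529 UMIs over 17421 and 19565 barcodes. The libraries were integrated in Seurat 5.3.0 (R 4.3.3) with 1992 of 2000 variable genes, the 8 identity genes among them left out, and clustered at resolution 0.5 into 24 clusters, 20 of them named from fixed markers. UMIs were summed per class and library with Python 3.11.15 and scipy 1.17.1. Intervals are exact Poisson for levels, Clopper-Pearson for shares and conditional binomial for ratios; ratios used genes with at least 20 UMIs. The ratio step was checked on simulated counts. Positions come from GENCODE M21.

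The members, marker lists and gene lists were chosen with earlier results of these data known. All 10 genes were named, with the 3 genes most correlated with C1qa, Csf1r, Csf1, Il34, P2ry12 and Mrc1, and from each list the 2 of highest level and any whose ratio interval lay past 2-fold. Single genes that this rule would name are in places not reported here. Genes of the P2ry12 and Mrc1 sets, of the cells without C1q and of overlapping loci were named after their values were seen. UMIs were counted without use of other alignments, so reads shared by overlapping genes could not be reassigned. Alternatives were another resolution, clustering with the 10 genes, merging without integration, other cell filters, a marker gate, thinning and other denominators.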

Additional observations from a re-analysis of the deposited data

How the results depend on the processing

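No paired analysis was possible because each genotype has 1 library, and leaving out a replicate was not possible for the same reason. The log2 ratios of P2ry12 (0.65 to 0.86), Trem2 (0.55 to 0.79), Mrc1 (-0.74 to -0.54), Csf1r, Cx3cr1 and each C1q gene in macrophage-like cells kept their sign under all 12 alternatives, and that of Csf1 under 11 of 12, with -0.34 without the other white blood cells. The ratio of the summed C1q genes, -0.21, was -0.16 with a marker gate, -0.12 at resolution 1.0 and -0.078 without the other white blood cells. It was -0.092 as the mean of single-cell CPM and -0.28 per cell. The ratio thinned to 1000 UMIs was the same calculation as that mean, since no macrophage-like cell had fewer UMIs. For the same reason the filter of at least 1000 UMIs left the ratios unchanged, so the 12 alternatives are not all distinct. The macrophage-like share was 1.16% in humWT and 0.704% in humdG with the marker gate, 0.726% in humdG without the other white blood cells, 2.19% and 1.72% of named cells, and 1.98% and 1.54% outside the largest unnamed cluster. The class held 94.5% of C1q UMIs in humWT with over 200 genes and no doublet removal. P2ry12 in retinal progenitor-like cells of humdG was 11.8 CPM at resolution 1.0. There the cluster led by Tafa1 and Cp (980 humWT and 1582 humdG cells) was unnamed, so the class held a different set of cells. At the same resolution the cluster led by Pi16 and Clec3b (844 and 400 cells) was also unnamed. That led by Spp1 and Rgs5 (709 and 420 cells) was pericyte-like, so mesenchyme-like levels of Csf1 and Il34 hold for resolution 0.5. Of cells with P2ry12, 45.2% and 23.8% also held Mrc1 when thinned to 1000 UMIs, and 55.6% and 32.4% at 2000. The alternatives without other white blood cells, outside the largest unnamed cluster, and those of Csf1r in RPE-like and P2ry12 in progenitor-like cells were chosen after seeing the data. Beyond the changes of cells and of UMI totals given, the cause of each shift was not tested. Depth limits Il34 most, with 146 and 67 UMIs in all.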
